A study of Mus musculus with 12 samples.

Results

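The collagen genes other than type IV are the genes of the fibrillar, fibril-associated, beaded-filament, network-forming, anchoring-fibril, transmembrane and multiplexin collagens, read here in sorted fibroblasts of newborn mouse dermis. They were taken as every gene whose symbol in the array's annotation has the form Col, a number, a and a number, without the type IV chains. Only probe sets that the annotation gives 1 symbol were used, and a gene with several probe sets was read from the one with the highest mean over the 12 arrays. The rule gave 36 genes of the 17097 tested. By class they were 11 fibrillar chains, 9 FACITs (fibril-associated collagens with interrupted triple helices), 5 type VI chains, 3 short-chain network collagens, the anchoring-fibril chain Col7a1, 4 transmembrane collagens, 2 multiplexins, and Col26a1, which belongs to none of these classes. Col6a6 and Col28a1 were not analysed here.

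Dermis was taken from 2-day-old (P2) female mice that were littermates, and fibroblasts were sorted by FACS (fluorescence-activated cell sorting) into 4 populations, each from the same 3 animals, which gave 12 microarrays. All 4 populations were gated on Pdgfra and CD34, and cells carrying EpCam, CD31, CD117 or CD45 were left out. Papillary fibroblasts were CD26+ Dlk1- Sca1-, reticular fibroblasts were CD26- Dlk1+ Sca1-, and the populations labelled pre-adipogenic were CD26- Dlk1+ Sca1+ and CD26- Dlk1- Sca1+, called Dlk1+ Sca1+ and Dlk1- Sca1+ here. The labels name no transgene or treatment, and the layer beneath the dermis was removed before digestion. RNA came from 4500 cells a sample and was amplified for 21 cycles before hybridisation. Values are deposited log2 RMA values (robust multi-array average, background-corrected, normalised and summarised per probe set), so a difference of 1 is a doubling, and means are given ± SD over n = 3 animals.

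Collagens are secreted or membrane-bound trimers with a triple helix of glycine-repeat chains. In dermis, type I, III and V chains build the striated fibrils, FACITs decorate their surface, type VI collagen forms a separate filament network, and type VII collagen forms the anchoring fibrils that tie the epidermal basement membrane to the papillary dermis beneath it. Multiplexins lie at basement membranes of vessels, muscle and fat, and type IX and XI collagens are best known from cartilage. Papillary dermis has thin, loosely packed fibrils and reticular dermis thick bundles, and the fat-forming lineage lies deepest.

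The populations differed most in minor collagens such as Col26a1, Col5a3, Col7a1 and Col11a1. Among the major chains, Col1a2 was highest in papillary cells on its 1 probe set, whose mean (9.57) was far below that of Col1a1 (13.13). The probe sets used for Col1a1, Col3a1, Col5a1 and Col5a2 lay near the top of the scale and were called in no contrast. A dimmer probe set of Col3a1 was also called highest in papillary cells. In limma's moderated F-test over the 4 populations (Benjamini-Hochberg adjusted p under 0.05 over all genes), 20 of the 36 collagen genes were called, or 55.6%, beside 35.7% of all genes tested. Papillary fibroblasts were highest in 5 collagens (7.97% of all genes), Col26a1, Col7a1, Col16a1, Col25a1 and Col1a2, and lowest in 5 (7.29%), Col5a3, Col11a1, Col15a1, Col18a1 and Col9a3, where highest and lowest mean called in the same direction against each of the other 3 populations. Reticular fibroblasts were highest in 4 (1.85% of all genes), Col14a1 (on the probe set used only), Col8a1, Col8a2 and Col13a1, and lowest in 0 (1.06%). Dlk1- Sca1+ cells were highest in 2 (1.54%), Col5a3 and Col18a1, and lowest in 2 (1.09%), Col16a1 and Col23a1. Dlk1+ Sca1+ cells were highest in 0 (0.579%) and lowest in 2 (0.462%), Col26a1 and Col7a1. No contrast was called for 16 of the 36 collagens (57.9% of all genes). With the animal as a block, Col27a1 joined the papillary-highest collagens (6 in all), Col6a4 and Col8a2 joined the papillary-lowest (7 in all), and Col6a4 was highest in Dlk1+ Sca1+ cells. Col27a1 was also papillary-highest under other settings, among them repeated quantile normalization and a variance trend. The set lowest in Dlk1- Sca1+ cells was 0 without any 1 of the 3 animals, and 1 without any papillary or Dlk1+ Sca1+ array, the reticular array of animal 3 or the Dlk1- Sca1+ array of animal 2 or 3. The lowest set was also 0 with each pair of populations fitted alone, 1 with arrays centred on their medians, and Col16a1 and Col27a1 without the Dlk1- Sca1+ array of animal 1. The set highest in Dlk1- Sca1+ cells was 1 (Col18a1) without animal 2 or 3, the Dlk1+ Sca1+ array of animal 1 or 3 or the Dlk1- Sca1+ array of animal 2. Without animal 1, or without its Dlk1- Sca1+ array alone, Col11a1 took the place of Col5a3 in the highest set. Pairs of populations fitted alone added Col15a1 to it. The reticular set was 2 genes with each pair of populations fitted alone, 2 without animal 2 (Col8a1 and Col13a1) and 1 without animal 3 (Col8a1), and it was 2 without the reticular array of animal 1 or 2 or the Dlk1+ Sca1+ array of animal 2 or 3. The range of the 4 population means had a median of 0.70 log2 units over the 36 collagens and 0.25 over all genes, and it exceeded 1 for 15 collagens (9.75% of all genes) and 2 for 5 of them (2.55% of all genes): Col26a1, Col5a3, Col7a1, Col11a1 and Col15a1.

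**Figure D1:**
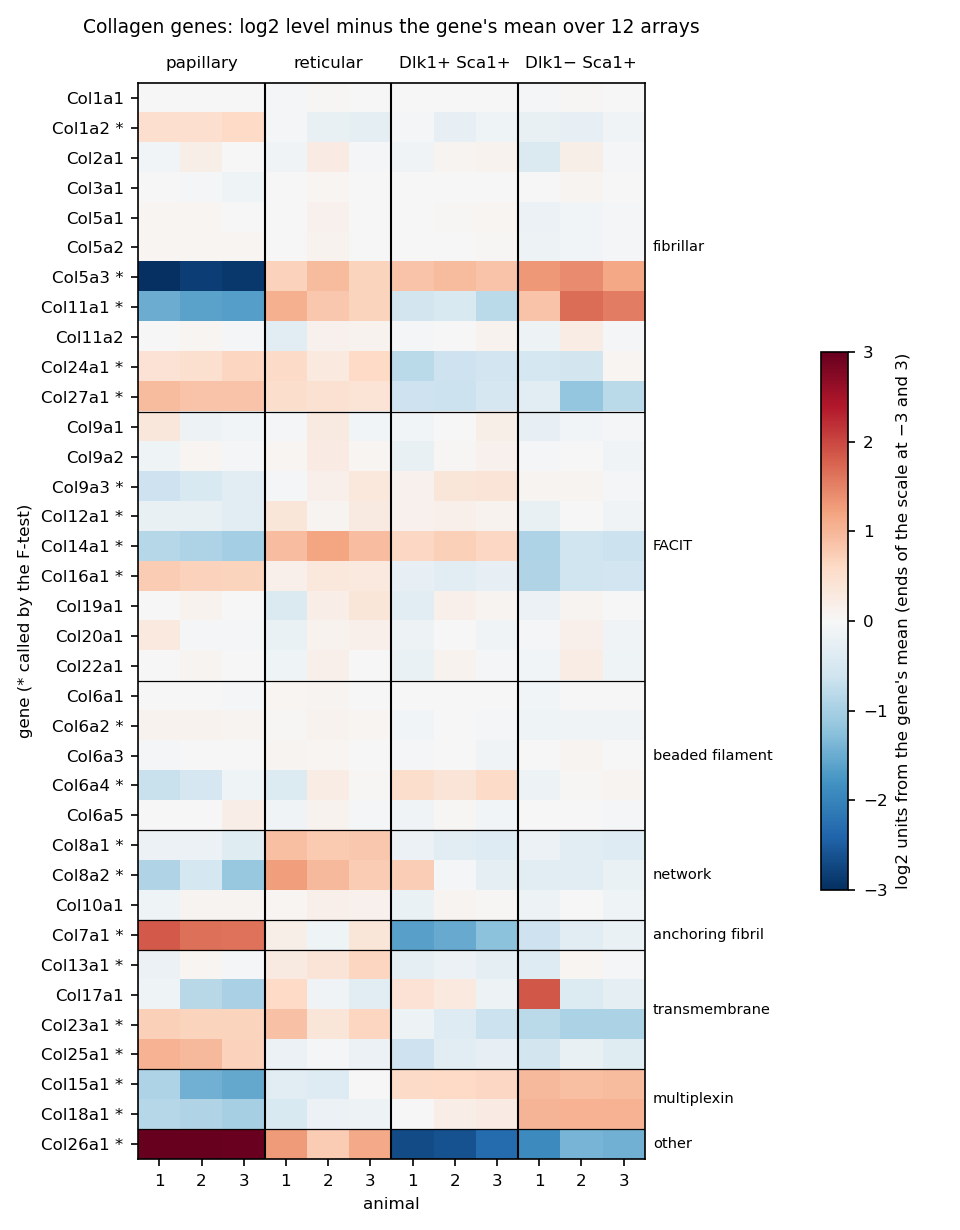
Log2 level of each of the 36 collagen genes (rows, grouped by class) on each of the 12 arrays (columns, by population and animal), minus the gene's mean over the arrays (colours end at -3 and 3); an asterisk marks the 20 genes called by the F-test. The papillary columns carry both deep red (Col26a1, Col7a1) and deep blue (Col5a3, Col11a1), while Col1a1, Col3a1, Col5a1, Col5a2, Col6a1 and Col6a3 stay pale in all 4 populations.

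Transcripts of several sorting markers differed between the gates. Dpp4, which encodes CD26, had a mean of 10.61 ± 0.40 in papillary cells and 6.26 to 6.37 in the other 3 populations. Dlk1 had a mean of 12.97 ± 0.07 in reticular, 12.86 ± 0.04 in Dlk1+ Sca1+, 11.39 ± 0.19 in Dlk1- Sca1+ and 9.97 ± 0.14 in papillary cells, so the transcript in the Dlk1- Sca1+ gate lay between the papillary level and that of both Dlk1+ gates. The Sca1 gene was not analysed here, so the Sca1 gates were not checked. Fibroblast genes were high on every array, at a mean of 10.81 to 11.19 over 8 genes, although Pdgfra itself read only 7.07 to 7.64 as a population mean. The immune genes averaged 5.47 to 5.70. The lowest correlation between arrays of a population was 0.989, and no pair of arrays was identical. In these bulk samples, fewer cells of a type and less RNA per cell cannot be told apart.

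Upstream sequence was found for 28 of the 36 genes in the RefSeq promoter table (GRCm38.p6). The 250 bases before the start are shown for 2 collagens of each pattern: highest in papillary cells (Col7a1 at chr9:108953336-108953585 on the + strand and Col16a1 at chr4:130047590-130047839 on the + strand), lowest in papillary cells (Col5a3 at chr9:20815068-20815317 on the - strand and Col11a1 at chr3:114030290-114030539 on the + strand) and highest in reticular cells (Col8a2 at chr4:126286544-126286793 on the + strand and Col8a1 at chr16:57754738-57754987 on the - strand). They are written 5′ to 3′ in the gene's direction, so that the 3 groups can be set side by side. Capitals mark matches on either strand to 5 motifs: the TATA box (TATAAA), the CCAAT box (CCAAT), the GC box (GGGCGG), the AP-1 site (TGANTCA) and the TCF/LEF site (CTTTGA).
Col7a1: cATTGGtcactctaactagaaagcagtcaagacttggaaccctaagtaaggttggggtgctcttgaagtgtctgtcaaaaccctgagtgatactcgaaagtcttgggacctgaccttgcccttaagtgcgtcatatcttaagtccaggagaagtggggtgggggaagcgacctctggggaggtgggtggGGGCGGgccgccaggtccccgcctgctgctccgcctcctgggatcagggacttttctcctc
Col16a1: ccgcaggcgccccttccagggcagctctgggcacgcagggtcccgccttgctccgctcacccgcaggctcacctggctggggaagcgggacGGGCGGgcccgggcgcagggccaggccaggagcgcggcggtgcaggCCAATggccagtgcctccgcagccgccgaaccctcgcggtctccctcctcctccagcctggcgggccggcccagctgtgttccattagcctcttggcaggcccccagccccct
Col5a3: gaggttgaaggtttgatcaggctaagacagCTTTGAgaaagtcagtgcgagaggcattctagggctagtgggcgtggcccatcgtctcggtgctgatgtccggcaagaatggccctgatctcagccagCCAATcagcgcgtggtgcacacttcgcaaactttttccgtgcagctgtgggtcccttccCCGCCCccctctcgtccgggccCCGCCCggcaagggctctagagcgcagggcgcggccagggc
Col11a1: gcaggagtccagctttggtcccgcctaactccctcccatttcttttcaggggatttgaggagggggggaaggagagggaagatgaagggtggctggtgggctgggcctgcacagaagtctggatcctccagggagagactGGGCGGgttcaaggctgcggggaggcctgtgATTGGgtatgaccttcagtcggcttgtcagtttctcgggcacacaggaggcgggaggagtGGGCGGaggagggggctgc
Col8a2: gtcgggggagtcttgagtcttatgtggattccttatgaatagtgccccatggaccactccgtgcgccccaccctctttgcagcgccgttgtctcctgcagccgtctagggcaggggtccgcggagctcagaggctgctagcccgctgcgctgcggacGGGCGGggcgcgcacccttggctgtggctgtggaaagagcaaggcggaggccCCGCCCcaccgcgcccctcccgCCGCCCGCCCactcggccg
Col8a1: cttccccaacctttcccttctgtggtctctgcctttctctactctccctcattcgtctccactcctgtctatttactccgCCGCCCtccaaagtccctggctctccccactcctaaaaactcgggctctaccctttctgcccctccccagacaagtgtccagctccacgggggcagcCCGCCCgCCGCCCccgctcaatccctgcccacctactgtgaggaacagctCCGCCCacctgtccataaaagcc
The shared letters are GC boxes, 1 in Col7a1 and in Col16a1, 2 in Col5a3 and in Col11a1 and 4 in each type VIII gene, where a pair in Col8a2 overlaps by 2 bases. CCAAT is in the first 4 sequences and in neither type VIII gene.

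Over the 31 windows of the 28 genes (some genes have several listed starts), the GC box was in 18, or 58.1%, beside 32.7% of the 32851 windows of the table. CCAAT was in 10 of them, or 32.3%, beside 33.8% of all windows. CCAAT matched in 4 of 4 windows of the papillary-highest genes (Col7a1, Col16a1, Col25a1 and Col1a2), in 3 of 5 of the papillary-lowest genes (Col5a3, Col11a1 and Col18a1) and in 0 of 3 of the reticular-highest genes. TATAAA was in 16.1% of the collagen windows and 12.4% of all, CTTTGA in 29% and 13.8%, and TGANTCA in 3.23% and 6.75%. These are matches of letters in windows of few genes, with no test, and they do not show binding. Col26a1, Col14a1, Col1a1, Col2a1, Col5a2, Col9a3, Col22a1 and Col12a1 had no entry.

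Among the fibrillar chains, Col1a1, Col3a1, Col5a1 and Col5a2 were called in no contrast on their brightest probe sets. Col1a1, the major type I chain, read 13.13, 13.12 and 13.13 on the papillary arrays (animals 1, 2 and 3, the order kept throughout), 13.09, 13.16 and 13.13 on the reticular, 13.11, 13.15 and 13.15 on the Dlk1+ Sca1+ and 13.06, 13.16 and 13.14 on the Dlk1- Sca1+ arrays. All 4 populations overlapped, and their means lay within 0.02 log2 units. Col3a1, the type III chain, read 12.90, 12.88 and 12.79 in papillary, 12.93, 12.97 and 12.89 in reticular, 12.93, 12.92 and 12.90 in Dlk1+ Sca1+ and 12.89, 12.98 and 12.92 in Dlk1- Sca1+ cells. Col5a1 and Col5a2, the chains of the type V collagen that starts fibrils, read 12.48 to 12.78 and 12.65 to 12.91 over the 12 arrays. For Col5a1 the papillary arrays read 12.72, 12.71 and 12.68, the reticular 12.67, 12.78 and 12.65, the Dlk1+ Sca1+ 12.64, 12.69 and 12.71 and the Dlk1- Sca1+ 12.48, 12.57 and 12.59. The Dlk1- Sca1+ values of Col5a1 lay below the 9 others, but no contrast of it was called. Col5a2 read 12.86, 12.87 and 12.86, then 12.79, 12.91 and 12.82, then 12.79, 12.82 and 12.84, then 12.65, 12.73 and 12.77 in the same order of populations. Its Dlk1- Sca1+ values also lay below the 9 others, without a call.

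These probe sets lay close to the top of the scale, whose highest deposited value was 13.27. Of the 36 collagens, 7 had a mean over 12, a level chosen after the values were seen (Col1a1, Col3a1, Col5a1, Col5a2, Col6a1, Col6a2 and Col6a3). Their range of population means had a median of 0.10 log2 units and was at most 0.21, and only Col6a2 was called by the F-test. Of all genes, 120 had a mean over 12, with a median range of 0.15 and 25% called. Dimmer probe sets of the same chains read otherwise. The second probe set of Col3a1 (mean 11.19) read 11.58, 11.52 and 11.70 in papillary, 11.18, 11.18 and 11.13 in reticular, 11.10, 11.15 and 11.31 in Dlk1+ Sca1+ and 10.71, 10.82 and 10.92 in Dlk1- Sca1+ cells. Papillary values were above and Dlk1- Sca1+ values below all others. Its papillary differences were 0.44 from reticular (adjusted p = 0.00145), 0.41 from Dlk1+ Sca1+ (adjusted p = 0.00198) and 0.78 from Dlk1- Sca1+ (adjusted p = 1.12e-05, limma over all 45037 probe sets, as for every value of another probe set here). The dimmest probe set of Col5a1 (mean 11.17) and the second of Col5a2 (mean 11.11) differed by 0.51 (adjusted p = 0.00134) and 0.55 (adjusted p = 0.00305) between papillary and Dlk1- Sca1+ cells. Whether the brightest probe sets could register differences of this size was not tested, so the small ranges of the 7 bright chains are bounds on what these probe sets read.

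Col1a2, the other type I chain, was higher in papillary cells than in each other population. It read 10.07, 10.07 and 10.16 in papillary, 9.5, 9.34 and 9.27 in reticular, 9.52, 9.31 and 9.43 in Dlk1+ Sca1+ and 9.34, 9.32 and 9.45 in Dlk1- Sca1+ cells. The papillary values lay above the 9 others, which overlapped. The papillary difference was 0.73 ± 0.08 (SE) from reticular (limma adjusted p = 1.98e-05), 0.68 ± 0.08 from Dlk1+ Sca1+ (adjusted p = 3.19e-05) and 0.73 ± 0.08 from Dlk1- Sca1+ cells (adjusted p = 1.83e-05), or 1.6 to 1.66-fold. These 3 contrasts share the papillary arrays. The annotation gives the Col1a2 symbol to 1 probe set, and 15588 probe sets carry no symbol here, so other probe sets of the gene could not be compared. The mean of this probe set was 9.57, beside 13.13 for Col1a1, and how well it reads the Col1a2 transcript was not tested.

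Col5a3, a further type V chain that is restricted to fewer tissues than the other type V chains, showed the largest deficit in papillary cells. It read 6.97, 7.24 and 7.17 in papillary, 10.77, 11.03 and 10.75 in reticular, 10.92, 11.03 and 10.92 in Dlk1+ Sca1+ and 11.37, 11.49 and 11.23 in Dlk1- Sca1+ cells. Every papillary value was below every other value, and the Dlk1- Sca1+ values were above the rest. Papillary cells had 13.2-fold less than reticular cells (difference -3.72 ± 0.10 SE, limma adjusted p = 9.6e-11), 14.2-fold less than Dlk1+ Sca1+ cells (-3.83 ± 0.10, adjusted p = 3.87e-11) and 18.9-fold less than Dlk1- Sca1+ cells (-4.24 ± 0.10, adjusted p = 2e-11). Reticular and Dlk1+ Sca1+ cells were not told apart (Dlk1+ Sca1+ minus reticular not called, values overlapping). Dlk1- Sca1+ cells exceeded reticular cells by 0.51 ± 0.10 (adjusted p = 0.00322) and Dlk1+ Sca1+ cells by 0.41 ± 0.10 (adjusted p = 0.0274). The last call was lost under 7 of 22 alternatives, all of which left out arrays, with adjusted p from 0.001 to 0.168 over all of them. A second, dimmer probe set of Col5a3 gave the same papillary directions at -1.17, -1.47 and -2.30, all called.

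Col11a1, a type XI chain that nucleates thin fibrils in cartilage and other tissues, was lowest in papillary cells and separated the Sca1+ populations. It read 5.95, 5.83 and 5.79 in papillary, 8.51, 8.26 and 8.11 in reticular, 6.89, 6.98 and 6.63 in Dlk1+ Sca1+ and 8.30, 9.11 and 8.99 in Dlk1- Sca1+ cells. Papillary values lay below all others, Dlk1+ Sca1+ values came next, and reticular and Dlk1- Sca1+ values overlapped. The papillary values also lay below the array medians (6.21 to 6.34) and were not shown to be above background. Folds against the papillary values are therefore ratios of signal. Papillary cells had 5.41-fold less than reticular (-2.44 ± 0.18 SE, limma adjusted p = 4.16e-07), 1.97-fold less than Dlk1+ Sca1+ (-0.98 ± 0.18, adjusted p = 0.00101) and 7.69-fold less than Dlk1- Sca1+ cells (-2.94 ± 0.18, adjusted p = 5.76e-08). Dlk1- Sca1+ exceeded Dlk1+ Sca1+ cells 3.91-fold (1.97 ± 0.18, adjusted p = 2.84e-05), and Dlk1+ Sca1+ cells had 2.75-fold less than reticular cells (-1.46 ± 0.18, adjusted p = 0.000218). A second probe set with a mean of 3.87 differed by -0.01, 0.13 and -0.20 in the 3 papillary contrasts, none called, so these differences rest on 1 probe set. The mean of both probe sets gave -1.22, -0.42 and -1.57, all called. Averaging with a nearly flat probe set mainly shrinks the differences of the one used, so these calls are no separate evidence.

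Col27a1 and Col24a1, fibrillar chains known from developing cartilage and bone, were higher in the papillary and reticular populations than in the Sca1+ populations. Col27a1 read 10.75, 10.65 and 10.66 in papillary, 10.33, 10.25 and 10.21 in reticular, 9.18, 9.16 and 9.30 in Dlk1+ Sca1+ and 9.49, 8.63 and 8.98 in Dlk1- Sca1+ cells. The Sca1- and Sca1+ values did not overlap. Papillary cells exceeded Dlk1+ Sca1+ cells by 1.47 ± 0.16 (SE, limma adjusted p = 9.39e-06) and Dlk1- Sca1+ cells by 1.65 ± 0.16 (adjusted p = 3.38e-06), and reticular cells were higher than Dlk1+ Sca1+ cells 2.07-fold (adjusted p = 0.000969) and than Dlk1- Sca1+ cells 2.35-fold (adjusted p = 0.00012). The papillary values of Col27a1 all lay above the reticular ones without a call. With the animal as a block the papillary minus reticular contrast was called (adjusted p = 0.0378). It was also called under other settings, among them repeated quantile normalization and a variance trend, and on the other probe set (0.39, adjusted p = 0.0248). Col24a1 ranged from 6.93 to 7.14 in papillary, 6.78 to 7.08 in reticular, 5.69 to 5.91 in Dlk1+ Sca1+ and 5.94 to 6.54 in Dlk1- Sca1+ cells, and its papillary differences from the Sca1+ populations were 1.20 ± 0.15 (adjusted p = 3.47e-05) and 0.87 ± 0.15 (adjusted p = 0.00056). The other fibrillar chains, Col2a1 and Col11a2, both best known from cartilage, ranged from 5.96 to 6.63 and 5.44 to 6.0 over the 12 arrays and were called in no contrast.

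Among the FACITs, Col14a1, which binds the surface of interstitial fibrils, was high in reticular and Dlk1+ Sca1+ cells. It read 10.11, 10.04 and 9.94 in papillary, 11.90, 12.14 and 11.89 in reticular, 11.58, 11.67 and 11.59 in Dlk1+ Sca1+ and 10.04, 10.37 and 10.32 in Dlk1- Sca1+ cells. Reticular values lay above all others, Dlk1+ Sca1+ values next, and papillary and Dlk1- Sca1+ values overlapped. Reticular cells exceeded papillary cells 3.85-fold (papillary minus reticular -1.95 ± 0.10 SE, limma adjusted p = 1.51e-08) and Dlk1- Sca1+ cells 3.32-fold (Dlk1- Sca1+ minus reticular -1.73 ± 0.10, adjusted p = 1.32e-07). Within the Sca1+ cells, Dlk1- Sca1+ had 2.58-fold less than Dlk1+ Sca1+ (-1.37 ± 0.10, adjusted p = 4.43e-06). The smaller difference between Dlk1+ Sca1+ and reticular cells (-0.36 ± 0.10, adjusted p = 0.0411) was lost under 14 of 22 alternatives, among them leaving out any of the 3 animals (adjusted p 0.0133 to 0.252 over all of them). Both other probe sets of Col14a1 gave papillary minus reticular differences of -2.04 and -1.95. Unlike the one used, both also gave a called papillary minus Dlk1- Sca1+ difference, -0.38 (adjusted p = 0.0146) and -0.43 (adjusted p = 0.0106). On neither was the Dlk1+ Sca1+ minus reticular difference called (-0.29, adjusted p = 0.142, and -0.23, adjusted p = 0.32). Col14a1 was therefore called highest in reticular cells on the probe set used only, and the other probe sets called it lowest in papillary cells.

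Col16a1, a FACIT found near basement membranes and with fibrillin microfibrils in the upper dermis, ran down in steps across the populations. It read 11.32, 11.24 and 11.22 in papillary, 10.71, 10.86 and 10.85 in reticular, 10.30, 10.23 and 10.30 in Dlk1+ Sca1+ and 9.66, 9.96 and 9.98 in Dlk1- Sca1+ cells. No 2 populations overlapped. The papillary difference was 0.45 ± 0.09 (SE) from reticular (limma adjusted p = 0.00177), 0.98 ± 0.09 from Dlk1+ Sca1+ (adjusted p = 2.26e-06) and 1.39 ± 0.09 from Dlk1- Sca1+ cells (adjusted p = 9.16e-08). The lower steps were smaller: Dlk1+ Sca1+ minus reticular was -0.53 ± 0.09 (adjusted p = 0.00232, lost without animal 2 or animal 3) and Dlk1- Sca1+ minus Dlk1+ Sca1+ was -0.41 ± 0.09 (adjusted p = 0.0129, lost without any 1 of the 3 animals).

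Col9a3, a type IX chain that coats cartilage fibrils, was lowest in papillary cells. It read 7.13, 7.28 and 7.41 in papillary, 7.69, 7.91 and 8.07 in reticular, 7.87, 8.10 and 8.14 in Dlk1+ Sca1+ and 7.84, 7.83 and 7.70 in Dlk1- Sca1+ cells. The papillary values lay below the 9 others, which overlapped. The papillary difference was -0.62 ± 0.11 (SE) from reticular (limma adjusted p = 0.000879), -0.76 ± 0.11 from Dlk1+ Sca1+ (adjusted p = 0.000149) and -0.52 ± 0.11 from Dlk1- Sca1+ cells (adjusted p = 0.00331, and 0.0712 without animal 2). Col9a1 and Col9a2, its partner chains, were under the 25th percentile of genes (5.38) in mean and were called in no contrast. Col12a1, a FACIT of fibril surfaces in tension-bearing tissue, ranged from 6.89 to 7.01 in papillary, 7.32 to 7.58 in reticular, 7.34 to 7.39 in Dlk1+ Sca1+ and 7.01 to 7.21 in Dlk1- Sca1+ cells, and it was lower in papillary than in reticular (-0.50 ± 0.08, adjusted p = 0.000522) and Dlk1+ Sca1+ cells (-0.39 ± 0.08, adjusted p = 0.00301, and 0.0765 without animal 3). Col19a1, Col20a1 and Col22a1 were called in no contrast, with ranges of population means of 0.08, 0.14 and 0.07.

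**Figure D2:**
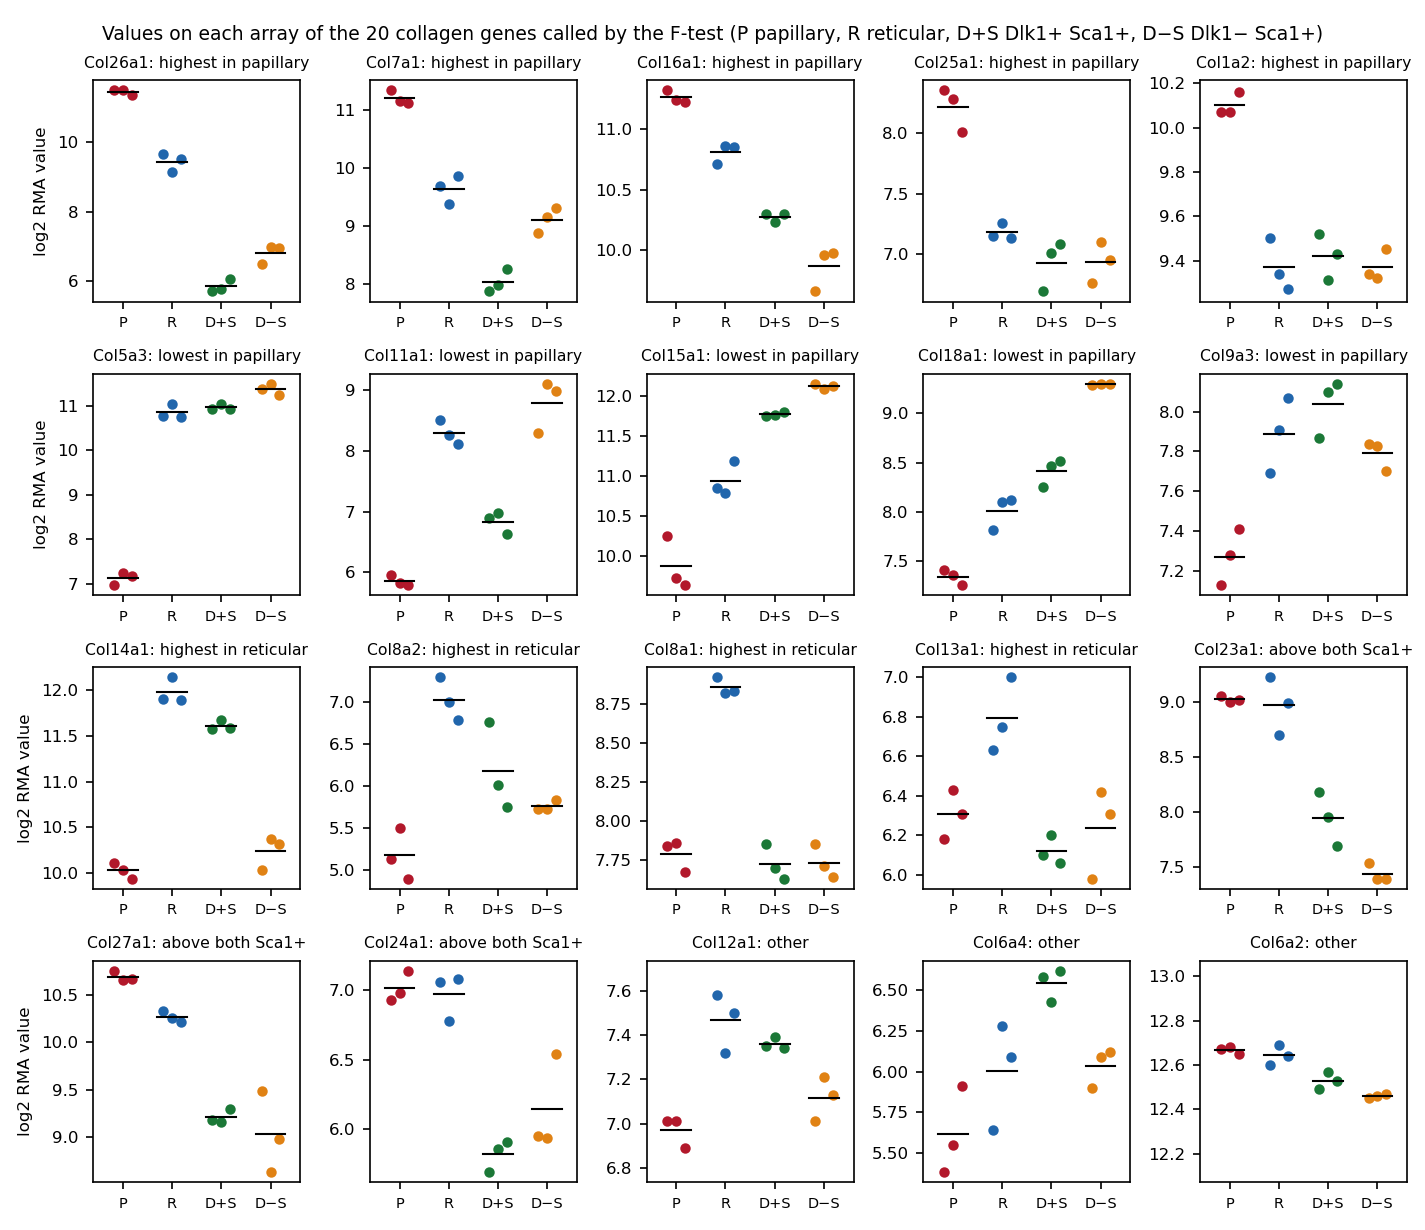
Log2 RMA values of the 20 collagen genes called by the F-test, 1 panel a gene with its own vertical axis; points are the 3 animals of each population and bars are population means. Papillary values (red) stand clear of all others for Col26a1, Col7a1 and Col1a2 above and for Col5a3, Col11a1 and Col9a3 below, and reticular values (blue) stand highest for Col14a1 and Col8a1.

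Of the type VI chains, which assemble into beaded filaments around cells, the classical 3 varied little. Col6a1 read 12.72, 12.72 and 12.70 in papillary, 12.79, 12.80 and 12.74 in reticular, 12.74, 12.72 and 12.71 in Dlk1+ Sca1+ and 12.65, 12.71 and 12.71 in Dlk1- Sca1+ cells. Col6a3 read 12.39, 12.42 and 12.41, then 12.50, 12.49 and 12.40, then 12.36, 12.42 and 12.32, then 12.42, 12.51 and 12.40 in the same order. Neither was called in any contrast. Col6a2 read 12.67, 12.68 and 12.65 in papillary, 12.60, 12.69 and 12.64 in reticular, 12.49, 12.57 and 12.53 in Dlk1+ Sca1+ and 12.45, 12.46 and 12.47 in Dlk1- Sca1+ cells. Its papillary values lay above all Sca1+ values, and the difference from Dlk1- Sca1+ cells was 0.21 ± 0.06 (SE, limma adjusted p = 0.0244), a call lost under 8 of 22 alternatives that each left out arrays (adjusted p 0.000229 to 0.175). With the animal as a block, Col6a2 was also called lower in Dlk1- Sca1+ than in reticular cells (-0.18, adjusted p = 0.0293). Col6a4, an additional type VI chain, ranged from 5.38 to 5.91 in papillary, 5.64 to 6.28 in reticular, 6.43 to 6.62 in Dlk1+ Sca1+ and 5.90 to 6.12 in Dlk1- Sca1+ cells. Its Dlk1+ Sca1+ values lay above all others, and the papillary minus Dlk1+ Sca1+ difference was -0.93 ± 0.16 (adjusted p = 0.000573). With the animal as a block, Col6a4 was also called higher in Dlk1+ Sca1+ than in reticular (adjusted p = 0.0195) and Dlk1- Sca1+ cells (adjusted p = 0.0286), and lower in papillary than in reticular (adjusted p = 0.0369) and Dlk1- Sca1+ cells (adjusted p = 0.0268). It was then the 1 collagen highest in Dlk1+ Sca1+ cells, but its other probe set differed by 0.12 in the opposite direction without a call. Col6a5 had a mean of 4.38 and was called in no contrast.

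The type VIII collagens, short chains that form hexagonal sheets in the cornea and in vessel walls, marked reticular cells. Col8a1 read 7.84, 7.86 and 7.67 in papillary, 8.92, 8.82 and 8.83 in reticular, 7.85, 7.70 and 7.63 in Dlk1+ Sca1+ and 7.85, 7.71 and 7.64 in Dlk1- Sca1+ cells. Reticular values lay above the 9 others, which overlapped. Reticular cells exceeded papillary cells 2.09-fold (papillary minus reticular -1.07 ± 0.09 SE, limma adjusted p = 9.59e-07), Dlk1+ Sca1+ cells 2.19-fold (adjusted p = 4.04e-06) and Dlk1- Sca1+ cells 2.18-fold (adjusted p = 1.59e-06). Both dimmer probe sets of Col8a1 gave larger differences, papillary minus reticular -2.85 (adjusted p = 3.19e-07) and -3.15 (adjusted p = 2.95e-08). Col8a2 read 5.13, 5.5 and 4.89 in papillary, 7.30, 7.01 and 6.79 in reticular, 6.77, 6.01 and 5.75 in Dlk1+ Sca1+ and 5.73, 5.72 and 5.83 in Dlk1- Sca1+ cells. Reticular values were again above all others, by the least over the first Dlk1+ Sca1+ array. The papillary mean of Col8a2, 5.17, was under the 25th percentile of genes (5.38) and was not shown to be above background. The papillary minus reticular difference in signal was -1.86 ± 0.23 (adjusted p = 3.52e-05) and the Dlk1- Sca1+ minus reticular difference -1.27 ± 0.23 (adjusted p = 0.00147). The difference of Dlk1+ Sca1+ from reticular cells (-0.86 ± 0.23, adjusted p = 0.0335) was lost under 8 of 22 alternatives, among them centring each array on its median (adjusted p 0.00191 to 0.257 over all of them). With the animal as a block, Col8a2 was also called in papillary minus Dlk1- Sca1+ (-0.59, adjusted p = 0.0403). Col10a1, the chain of hypertrophic cartilage, had a mean of 5.25, under the 25th percentile of genes, and was called in no contrast, or with the animal as a block in Dlk1- Sca1+ minus reticular (-0.2, adjusted p = 0.045).

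Col7a1, the chain of the anchoring fibrils, was highest in papillary cells. It read 11.34, 11.16 and 11.12 in papillary, 9.68, 9.38 and 9.86 in reticular, 7.87, 7.98 and 8.26 in Dlk1+ Sca1+ and 8.88, 9.15 and 9.30 in Dlk1- Sca1+ cells. No 2 populations overlapped. Papillary cells exceeded reticular cells 2.96-fold (1.57 ± 0.14 SE, limma adjusted p = 2.78e-06), Dlk1+ Sca1+ cells 9-fold (3.17 ± 0.14, adjusted p = 2.81e-09) and Dlk1- Sca1+ cells 4.28-fold (2.10 ± 0.14, adjusted p = 1.51e-07). Dlk1- Sca1+ exceeded Dlk1+ Sca1+ cells 2.1-fold (1.07 ± 0.14, adjusted p = 0.000413). The step from reticular to Dlk1- Sca1+ cells was smaller (-0.53 ± 0.14, adjusted p = 0.02) and was lost under 5 of 22 alternatives, each without an animal or array (adjusted p 0.0087 to 0.159 over all of them).

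Of the transmembrane collagens, Col25a1, a shed collagen known from motor neurons and developing muscle, was highest in papillary cells. It read 8.36, 8.29 and 8.01 in papillary, 7.15, 7.26 and 7.13 in reticular, 6.69, 7.01 and 7.08 in Dlk1+ Sca1+ and 6.76, 7.10 and 6.95 in Dlk1- Sca1+ cells. The papillary values stood clear of the 9 others. Papillary cells exceeded the others 2.06-fold (1.04 ± 0.12 SE from reticular, limma adjusted p = 2.97e-05), 2.45-fold (1.29 ± 0.12 from Dlk1+ Sca1+, adjusted p = 3.42e-06) and 2.43-fold (1.28 ± 0.12 from Dlk1- Sca1+, adjusted p = 3.83e-06). The second probe set read 9.07, 8.71 and 9.19 in papillary, 6.67, 6.04 and 6.30 in reticular, 5.24, 5.06 and 5.06 in Dlk1+ Sca1+ and 5.27, 5.03 and 5.32 in Dlk1- Sca1+ cells. It gave larger differences, 2.65, 3.87 and 3.78, and also placed reticular cells above both Sca1+ populations (Dlk1+ Sca1+ minus reticular -1.22, adjusted p = 0.000444; Dlk1- Sca1+ minus reticular -1.13, adjusted p = 0.000322).

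Col23a1, a further transmembrane collagen, was high in papillary and reticular cells alike. It read 9.05, 9.0 and 9.01 in papillary, 9.22, 8.70 and 8.99 in reticular, 8.18, 7.95 and 7.69 in Dlk1+ Sca1+ and 7.53, 7.39 and 7.39 in Dlk1- Sca1+ cells. Papillary and reticular values overlapped, and both lay above all Sca1+ values. Papillary cells exceeded Dlk1+ Sca1+ cells 2.11-fold (1.08 ± 0.13 SE, limma adjusted p = 3.6e-05) and Dlk1- Sca1+ cells 3-fold (1.58 ± 0.13, adjusted p = 1.12e-06). Reticular cells exceeded Dlk1- Sca1+ cells 2.89-fold (Dlk1- Sca1+ minus reticular -1.53 ± 0.13, adjusted p = 4.88e-06). The difference between the Sca1+ populations (-0.50 ± 0.13, adjusted p = 0.0375) was lost under 15 of 22 alternatives (adjusted p 0.0111 to 0.196). It was called on neither other probe set of Col23a1 (-0.23, adjusted p = 0.452, and -0.46, adjusted p = 0.22). Col13a1, a transmembrane collagen of adhesion sites and the neuromuscular junction, read 6.18, 6.43 and 6.31 in papillary, 6.63, 6.75 and 7.0 in reticular, 6.10, 6.20 and 6.06 in Dlk1+ Sca1+ and 5.98, 6.42 and 6.31 in Dlk1- Sca1+ cells. Its reticular values lay above the 9 others. The differences from reticular were -0.49 ± 0.12 for papillary (adjusted p = 0.00896), -0.67 ± 0.12 for Dlk1+ Sca1+ (adjusted p = 0.00384) and -0.56 ± 0.12 for Dlk1- Sca1+ cells (adjusted p = 0.00632), and all 3 calls were lost without animal 3 (adjusted p 0.148, 0.15 and 0.106).

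Col17a1, the hemidesmosome collagen of basal keratinocytes, is described here because of its values. It read 8.15, 7.44 and 7.30 in papillary, 8.87, 8.17 and 7.94 in reticular, 8.72, 8.57 and 8.13 in Dlk1+ Sca1+ and 10.14, 7.87 and 8.01 in Dlk1- Sca1+ cells. The Dlk1- Sca1+ array of animal 1 was far above the other 11, and no contrast was called. On the same array the mean of 10 keratinocyte genes (Krt5, Krt14, Krt15, Krt1, Krt10, Epcam, Cdh1, Dsp, Trp63 and Perp) was 9.68, beside 7.15 and 7.22 on the other Dlk1- Sca1+ arrays and 6.23 to 8.06 in the remaining populations. Over all 10 keratinocyte genes, 1, Krt10, was called by the F-test. Without that array, 77 of the 81 called differences of collagens were kept, and 4 were lost: Col6a2 in papillary minus Dlk1- Sca1+, Col7a1 in Dlk1- Sca1+ minus reticular, and Col23a1 and Col5a3 between the Sca1+ populations. Another 5 differences were gained, among them Col17a1 in papillary minus Dlk1+ Sca1+ cells (-0.84, limma adjusted p = 0.0241) and Col11a1 in Dlk1- Sca1+ minus reticular cells (0.76, adjusted p = 0.00155). With the animal as a block, the papillary minus Dlk1- Sca1+ difference of Col17a1 (-1.04) was called (adjusted p = 0.0221), but without that array it was -0.31 (adjusted p = 0.552). The part of keratinocyte RNA in the Col17a1 values was not tested. Keratinocytes also make Col7a1. On that array Col7a1 read 8.88, the lowest of the 3 Dlk1- Sca1+ values. The papillary arrays, where Col7a1 was highest, had keratinocyte means of 7.55, 6.95 and 6.23, beside 7.87, 6.39 and 6.54 on the reticular arrays. The part of keratinocyte RNA in the Col7a1 values was not tested.

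**Figure D3:**
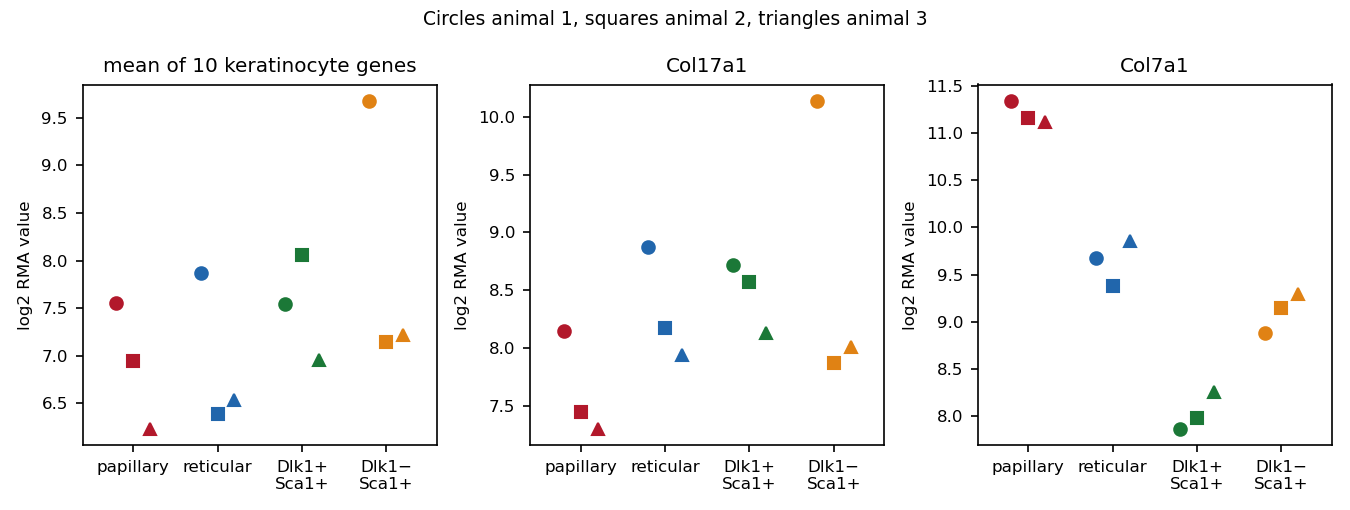
Mean of 10 keratinocyte genes, Col17a1 and Col7a1 on each array (log2 RMA values; circles, squares and triangles are animals 1, 2 and 3). The Dlk1- Sca1+ array of animal 1 reads 9.68 for the keratinocyte genes and 10.14 for Col17a1, above every other array. Col7a1 is 8.88 there and highest on the papillary arrays, and the part of keratinocyte RNA in it was not tested.

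Markers of other cells also differed between the populations. The mean of 7 pericyte and smooth muscle genes (of 10 listed) was 5.91 to 6.06 on the papillary, 7.03 to 7.91 on the reticular, 6.60 to 7.40 on the Dlk1+ Sca1+ and 6.38 to 6.64 on the Dlk1- Sca1+ arrays. The mean of 10 skeletal muscle genes was 5.74 to 5.81, 6.55 to 6.79, 6.22 to 6.31 and 5.85 to 5.99 in the same order. In papillary minus reticular, 6 of these 10 were lower (13.6% of all genes) and 0 higher (13.9%). Of the 7 pericyte and smooth muscle genes, 3 were lower and 0 higher in that contrast. The reticular arrays were above all others for the muscle list, and for the pericyte list they overlapped with the Dlk1+ Sca1+ array of animal 2 (7.40). The part of such cells in the values of Col14a1, Col8a1, Col8a2 and Col13a1 was not tested. The cartilage and bone genes (9 of 10 listed) were set beside Col11a1 and Col9a3. They averaged 5.37 to 5.53 in papillary, 5.63 to 5.81 in reticular, 5.58 to 5.73 in Dlk1+ Sca1+ and 5.67 to 5.80 in Dlk1- Sca1+ cells. In the 3 papillary contrasts, 0 of the 9 were higher and 2, 1 and 2 lower, beside 13.1% to 14.1% of all genes in each direction. Sox9 was lower in all 3 (-1.55, -1.73 and -1.76, limma adjusted p from 0.000725 to 0.0018). The part of cartilage and bone cells was not tested either. The endothelial genes averaged 5.68 to 5.77, 5.97 to 6.18, 5.84 to 6.55 and 5.76 to 6.09, and the Schwann cell and melanocyte genes were highest, at 7.59, on the Dlk1- Sca1+ array of animal 1.

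The multiplexins Col15a1 and Col18a1, basement-membrane-zone collagens whose C-terminal fragments include endostatin, were lowest in papillary and high in Sca1+ cells. Col15a1 read 10.25, 9.73 and 9.64 in papillary, 10.85, 10.79 and 11.19 in reticular, 11.76, 11.77 and 11.80 in Dlk1+ Sca1+ and 12.16, 12.09 and 12.13 in Dlk1- Sca1+ cells. The populations rose in that order without overlap. Papillary cells had 2.1-fold less than reticular (-1.07 ± 0.14 SE, limma adjusted p = 7.58e-05), 3.74-fold less than Dlk1+ Sca1+ (-1.90 ± 0.14, adjusted p = 3.21e-07) and 4.77-fold less than Dlk1- Sca1+ cells (-2.25 ± 0.14, adjusted p = 7.44e-08). Dlk1+ Sca1+ exceeded reticular cells by 0.83 ± 0.14 (adjusted p = 0.0024, and 0.0815 without animal 2), and the Sca1+ populations did not differ by the test. Col18a1 read 7.41, 7.36 and 7.26 in papillary, 7.82, 8.10 and 8.12 in reticular, 8.25, 8.47 and 8.52 in Dlk1+ Sca1+ and 9.29, 9.30 and 9.30 in Dlk1- Sca1+ cells. Again no 2 populations overlapped. Papillary cells had 3.87-fold less than Dlk1- Sca1+ cells (-1.95 ± 0.10, adjusted p = 7.73e-09), which exceeded reticular cells 2.43-fold (adjusted p = 1.27e-06) and Dlk1+ Sca1+ cells 1.84-fold (adjusted p = 9.81e-05). The Dlk1+ Sca1+ excess over reticular cells (0.40 ± 0.10, adjusted p = 0.0208) was lost under 6 of 22 alternatives (adjusted p 0.00404 to 0.184).

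Col26a1, which encodes a secreted protein with an EMI domain and collagenous stretches, had the largest range of population means of the 36 collagens, 5.6 log2 units. It read 11.50, 11.49 and 11.35 in papillary, 9.65, 9.15 and 9.52 in reticular, 5.70, 5.78 and 6.07 in Dlk1+ Sca1+ and 6.48, 6.98 and 6.94 in Dlk1- Sca1+ cells. The 4 populations did not overlap. Papillary cells exceeded reticular cells 4.02-fold (2.01 ± 0.15 SE, limma adjusted p = 5.81e-07), Dlk1+ Sca1+ cells 48.4-fold (5.6 ± 0.15, adjusted p = 4.34e-11) and Dlk1- Sca1+ cells 25-fold (4.65 ± 0.15, adjusted p = 2.28e-10). Reticular cells in turn exceeded Dlk1+ Sca1+ cells 12-fold (Dlk1+ Sca1+ minus reticular -3.59 ± 0.15, adjusted p = 6.48e-08) and Dlk1- Sca1+ cells 6.23-fold (-2.64 ± 0.15, adjusted p = 1.49e-07), and Dlk1- Sca1+ exceeded Dlk1+ Sca1+ cells 1.93-fold (0.95 ± 0.15, adjusted p = 0.00185). Each of these 6 calls was kept under all 22 alternatives. The Dlk1+ Sca1+ values lay below the array medians (6.21 to 6.34) and were not shown to be above background, so folds against them are ratios of signal.

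Counted by comparison, the collagens were called in both directions. In papillary minus reticular, 15 of 36 were called (27.5% of all genes): 5 higher (13.9% of all genes) and 10 lower (13.6%). In papillary minus Dlk1+ Sca1+, 17 were called (28% of all genes), 8 higher (14.1%) and 9 lower (13.9%), and in papillary minus Dlk1- Sca1+, 14 were called (26.4%), 9 higher (13.1%) and 5 lower (13.3%). In Dlk1+ Sca1+ minus reticular, 13 were called where 8.43% of all genes were, 2 higher (4.06%) and 11 lower (4.37%). Dlk1- Sca1+ minus reticular gave 14 (18.2% of all genes), 3 higher (9.36%) and 11 lower (8.8%), and Dlk1- Sca1+ minus Dlk1+ Sca1+ gave 8 (7.36%), 5 higher (3.23%) and 3 lower (4.13%). The count for Dlk1+ Sca1+ minus reticular was 8 without animal 2 and 8 without animal 3, and that between the Sca1+ populations was 5 without any 1 of the 3 animals. Counting instead the genes whose 3 values in 1 population all lay on 1 side of the 3 in the other, there were 18 collagens in papillary minus reticular (37.6% of all genes), 19 in papillary minus Dlk1+ Sca1+ (40.2%), 17 in papillary minus Dlk1- Sca1+ (37.9%), 16 in Dlk1+ Sca1+ minus reticular (21.6%), 21 in Dlk1- Sca1+ minus reticular (29.1%) and 16 between the Sca1+ populations (21.9%). The median difference over all 36 collagens stayed within 0.12 log2 units of 0 in each contrast, at -0.01, 0.03, 0.06, -0.09, -0.12 and -0.02 in the order above, beside -0.01 to 0.01 for all genes. The 11 lower in both comparisons with reticular cells shared 10 names: Col13a1, Col14a1, Col16a1, Col23a1, Col24a1, Col26a1, Col27a1, Col7a1, Col8a1 and Col8a2, with Col11a1 lower in Dlk1+ Sca1+ only and Col12a1 in Dlk1- Sca1+ only. Both comparisons share the reticular arrays.

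**Figure D4:**
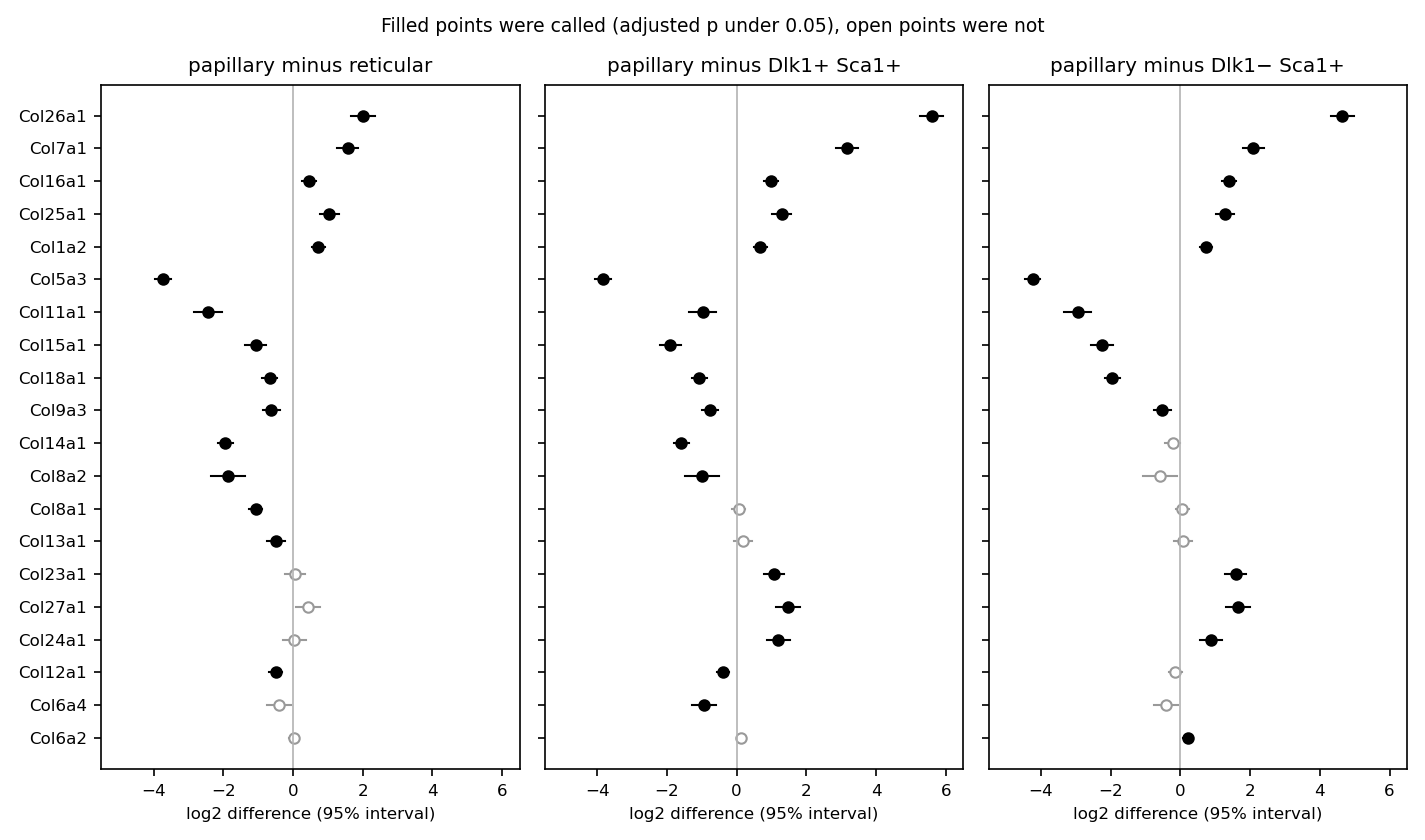
Papillary minus reticular, Dlk1+ Sca1+ and Dlk1- Sca1+ differences (log2, with 95% intervals) of the 20 collagen genes called by the F-test; filled points were called at an adjusted p under 0.05. Col26a1 lies at up to 5.6 and Col5a3 at down to -4.24, and Col14a1 lies at -0.21 against Dlk1- Sca1+ cells but at -1.95 and -1.58 against the others.

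Different probe sets of a gene did not always give the same size of difference. Of the 36 collagens, 16 had more than 1 probe set, which gave 96 pairs of gene and contrast. In 0 of them were probe sets called in opposite directions, and in 22 some were called and others not. Larger differences on dimmer probe sets were seen for Col8a1 and Col25a1, as given above, and for Col23a1, whose papillary minus Dlk1+ Sca1+ difference was 1.80 and 2.21 on the other 2 probe sets beside 1.08 on the one used. The opposite was seen for Col5a3 and Col11a1. The other probe set of Col18a1 gave -0.83, -1.17 and -2.14 in the 3 papillary contrasts, and that of Col9a3 gave -0.82, -1.12 and -0.63.

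**Figure D5:**
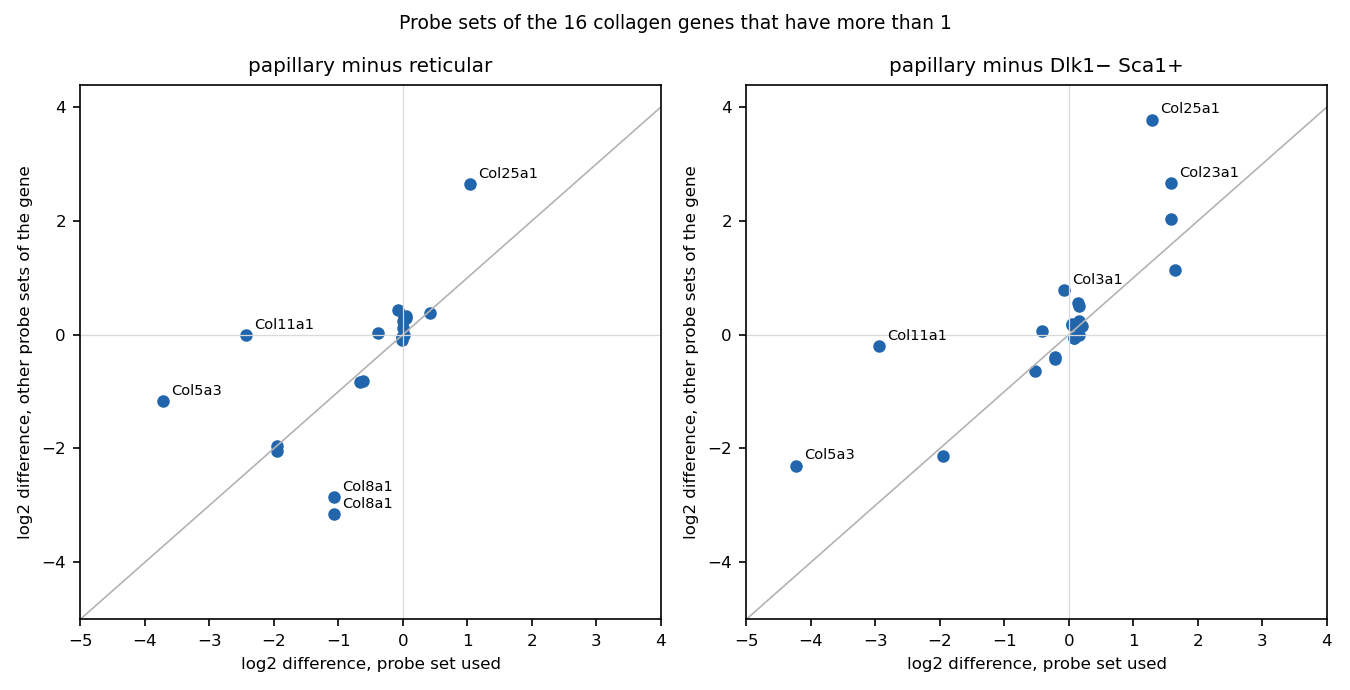
Papillary minus reticular and papillary minus Dlk1- Sca1+ differences (log2) on each other probe set (vertical axis) against the probe set used (horizontal axis) for the 16 collagens with more than 1 probe set. In papillary minus reticular, Col8a1 and Col25a1 lie farther from 0 on the other probe sets, while Col5a3 and Col11a1 lie nearer to 0 in both panels.

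Some collagen genes are neighbours in the mouse genome. With no coding gene between them in RefSeq (GRCm38.p6) were Col3a1 and Col5a2, Col9a1 and Col19a1 (both pairs on chromosome 1), Col6a1 and Col6a2 (chromosome 10), and Col6a4 and Col6a5 (chromosome 9). The Col3a1 and Col5a2 pair was called in no contrast on the probe sets used. Col18a1 lies near Col6a1, with 2 coding genes between them, and rose 3.87-fold from papillary to Dlk1- Sca1+ cells where Col6a1 was not called.

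The genes that make, fix and turn over collagen were read from 6 lists of 69 measured genes, of which 45 were called by the F-test (35.7% of all genes). Beside the counts for papillary minus reticular that follow, 13.9% of all genes were higher and 13.6% lower, so counts in lists this short are descriptions and not results about a list. Of 15 procollagen modification and folding genes, 3 were higher and 4 lower in papillary than in reticular cells, and 9 were lower (8.8% of all genes) and 1 higher (9.36%) in Dlk1- Sca1+ than in reticular cells (median -0.45, beside -0.01 for all genes). The prolyl 4-hydroxylase chain P4ha2 was at a higher level in papillary cells than in Dlk1- Sca1+ cells (1.31, limma adjusted p = 1.1e-07), while P4ha3 was lower in papillary than in reticular (-2.64, adjusted p = 5.9e-08) and Dlk1+ Sca1+ cells (-2.78, adjusted p = 2.34e-08). P3h2, a prolyl 3-hydroxylase, and Plod2, the lysyl hydroxylase that acts on telopeptides, were lower in papillary than in reticular cells (-1.80, adjusted p = 4.6e-08, and -0.71, adjusted p = 1.55e-05). Both were also lower in each Sca1+ population than in reticular cells. Of 11 export and cleavage genes, 2 were higher and 2 lower in papillary than in reticular cells. Pcolce, the enhancer of C-propeptide cleavage, was lower in papillary cells than in all others (-1.50, -1.78 and -1.02, with adjusted p from 4.93e-09 to 9.37e-07), and Creb3l1, a transcription factor of secretory cells, was higher (0.59, 0.47 and 0.92, all called).

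Of 5 cross-linking enzymes, 1 was higher and 3 lower in papillary than in reticular cells. Lox, lysyl oxidase, was lower in papillary cells than in all others (-0.81, -1.0 and -0.34, all called in limma, the last with adjusted p = 0.0156). Loxl3 averaged 7.40 in papillary, 9.70 in reticular, 9.20 in Dlk1+ Sca1+ cells and 6.67 in Dlk1- Sca1+ cells, and its Dlk1- Sca1+ minus reticular difference was -3.03 (adjusted p = 5.29e-09). Of 16 fibril-associated genes, 7 were lower and 1 higher in papillary than in reticular cells. The leucine-rich proteoglycan gene Prelp averaged 6.14 in papillary, 9.37 in reticular, 10.46 in Dlk1+ Sca1+ cells and 10.72 in Dlk1- Sca1+ cells (-3.23, -4.32 and -4.57 from papillary, with adjusted p from 9.28e-10 to 2.91e-08). Fmod and Kera, of the same family, were lower in papillary cells in all 3 contrasts, and Lum, lumican, was higher in all 3 (0.46, 0.69 and 1.01).

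Of 10 collagen receptor and uptake genes, 0 were higher and 3 lower in papillary than in reticular cells. Itga1, the alpha chain of a collagen-binding integrin, was lower in papillary (-1.78, limma adjusted p = 4.87e-06) and in both Sca1+ populations than in reticular cells. Mrc2, the endocytic collagen receptor, had more signal in papillary cells than in Dlk1- Sca1+ cells (0.88, adjusted p = 7.1e-06), and Ddr2, the receptor kinase for fibrillar collagen, was called in no contrast. Of 12 degradation genes, 1 was higher and 5 lower in papillary than in reticular cells. Fap, a fibroblast surface protease, averaged 8.25 in papillary, 11.11 in reticular, 10.47 in Dlk1+ Sca1+ cells and 9.64 in Dlk1- Sca1+ cells (papillary minus reticular -2.86, adjusted p = 3.72e-10). The inhibitor Timp1 was lower in papillary cells than in all others (-1.71, -2.17 and -1.66, all called), and Mmp14, a membrane collagenase, was higher than in all others (0.33, 0.36 and 0.43, all called). The count of 45 was 32 to 38 when 1 animal was left out.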

How the data were processed

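The 12 arrays (4 sorted populations of the same 3 littermates) were deposited by the authors as log2 values, made with RMA and affy per the submitters' processing notes (versions not given in the sources used here). Per the labels' protocols, RNA of 4500 cells was amplified for 21 cycles and 8 µg of cDNA was labelled, so levels carry amplification error, and the number of arrays limits the precision. Values have 2 decimals, and array medians were 6.21 to 6.34. Of 45141 probe sets, 104 controls were left out. Of the others, 28898 had 1 symbol, 551 several and 15588 none here, and only the first kind was used. A gene with several was read from the brightest by mean over the arrays (17097 genes), and 28689 single-symbol probe sets matched a RefSeq gene by Entrez number.

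In R 4.3.3 with limma 3.58.1, a mean per population was fitted to all 12 arrays (8 residual and 4.475 prior degrees of freedom), with 6 contrasts and an F-test, Benjamini-Hochberg adjusted over all genes and called under 0.05. The scripts were tested on simulated data. The members and gene lists were chosen with earlier results of these data known. Named with values on every array were members highest or lowest in 1 population, the 3 largest called differences in each direction, Col26a1, Col14a1, Col11a1 and the major chains. From the other lists, up to 4 called genes a contrast could be named, and Ddr2 and Col17a1 were named after their values were seen.

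The numbers pair the arrays because they mark the same animals in the labels. Deviations from population means correlated at a mean r of 0.27 (0.086 to 0.432) over 18 same-animal pairs, 17 of them above 0.1, and at -0.13 between animals. Each population was centred on its own animals, which largely fixes the value between animals, so that value is no separate evidence of pairing. The animal block, other normalizations, a filter at the 25th percentile, probe set means, pairwise fits, a variance trend and leaving out each animal and array were tried, and the second probe set was added later. The Sca1 gene was not analysed here.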

Additional observations from a re-analysis of the deposited data

How the results depend on the processing

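Of 216 collagen and contrast pairs, 81 were called, and 65 stayed called under all 22 other settings tried, while 16 were lost under at least 1, of which 10 were lost only without an animal or array. With the animal as a block, 81 of 81 calls were kept and 9 were gained, so the collagens highest in papillary cells were 6 in place of 5, those lowest there 7 in place of 5, and those highest in Dlk1+ Sca1+ cells 1 (Col6a4) in place of 0. Leaving out 1 animal or array gave 14 to 18 calls (15 with all arrays) in papillary minus reticular, 16 to 18 (17) in papillary minus Dlk1+ Sca1+, 12 to 15 (14) in papillary minus Dlk1- Sca1+, 8 to 14 (13) in Dlk1+ Sca1+ minus reticular, 11 to 14 (14) in Dlk1- Sca1+ minus reticular and 5 to 9 (8) between the Sca1+ populations. It gave 17 to 20 by the F-test, and 5 to 6 collagens highest in papillary, 1 to 4 in reticular, 0 in Dlk1+ Sca1+ and 1 to 2 in Dlk1- Sca1+ cells. Fewer arrays were fitted in each.

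The mean over probe sets turned the sign of Col3a1 in the papillary contrasts, to 0.18 against reticular, 0.18 against Dlk1+ Sca1+ and 0.36 against Dlk1- Sca1+ cells. It moved Col25a1 to 1.85, 2.58 and 2.53 in those contrasts, Col8a1 to -2.36 and Col5a3 to -2.45 in papillary minus reticular, and Col6a4 to -0.40 in papillary minus Dlk1+ Sca1+. The second probe set, an alternative chosen after seeing the data, kept 71 calls. Among differences called on either probe set, it turned the sign of Col3a1 in papillary minus reticular (0.44), minus Dlk1+ Sca1+ (0.41), minus Dlk1- Sca1+ (0.78) and between the Sca1+ populations (-0.37), and of Col11a1 (0.13) and Col6a4 (0.12) in papillary minus Dlk1+ Sca1+, and it took Col3a1 in Dlk1- Sca1+ minus reticular from 0 to -0.35. Differences called on neither probe set are not counted. The cause was not tested. Low signal limits the collagens under the 25th percentile of genes, 5 of 36, and high signal may limit the 7 with means over 12.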
